A study of Homo sapiens with 9 samples.

Results

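The genes described here make cholesterol and fatty acids, control that synthesis, or move cholesterol between lipoproteins, lysosomes and the plasma membrane. They were chosen by name: every row of the count and FPKM tables whose gene symbol is 1 of 35 fixed members, of 46427 genes in the table. All 35 were found, and all 35 passed the filter on low counts that left 20685 genes to be tested. By role, 18 are enzymes of sterol synthesis, 4 belong to the SREBP control system, 6 serve sterol uptake, transport and efflux, and 7 make, elongate or desaturate fatty acids.

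RNA was measured in 9 libraries of the established line H9, human embryonic stem cells (hESC), in 3 groups of 3. The first group was untreated hESC. The second (control NPC) was neural progenitor cells at day 11 of a midbrain dopamine neuron protocol, which blocks SMAD signalling with 200 nM LDN193189 and 10 µM SB431542 and adds 2 µM purmorphamine, a Hedgehog pathway agonist, and 3 µM CHIR99021, a GSK3 inhibitor. The third (BafA1 NPC) was day 11 progenitors from the same protocol that also received bafilomycin A1 (BafA1) at 10 nM for 6 h. For that exposure the labels name more than 1 window of days and do not say which applies to the sequenced cells, so the time between exposure and harvest is not known here. All groups come from 1 cell line, and the labels do not say whether the groups were grown or sequenced together. Libraries within a group are labelled biological replicates, without saying what was repeated, so p-values measure the spread between these libraries.

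Cells build cholesterol from acetyl-CoA through mevalonate, isoprenoid diphosphates, squalene and lanosterol. The transcription factors SREBP1 and SREBP2, made from SREBF1 and SREBF2, switch on these enzymes and those of fatty acid synthesis. SCAP carries the precursors from the endoplasmic reticulum to the Golgi for cleavage when sterols are scarce, and INSIG proteins hold them back when sterols are plentiful. Oxysterols activate the LXR receptors, which induce the exporters ABCA1 and ABCG1 and the ubiquitin ligase MYLIP, which removes lipoprotein receptors. Cholesterol taken up in lipoproteins is freed in acidic lysosomes and leaves them through NPC2 and NPC1. BafA1 inhibits the vacuolar proton pump and so stops lysosomal acidification. Sterols also take part in Hedgehog signalling at Smoothened, the protein on which purmorphamine acts.

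Promoter windows were searched for the letters of the motifs by which SREBP, its partner NF-Y and LXR bind DNA. RefSeq (GRCh38.p14) gave windows of 250 bases before to 50 after a transcript start for 30 of the 35 genes. On both strands, the NF-Y box CCAAT was present in 22 of these 30 genes, against 39.7% of all 27305 genes with a window (a gene counts when any of its windows matches). By role, 13 of 15 sterol synthesis genes held it, as did 2 of 4 SREBP control genes, 3 of 5 uptake, transport and efflux genes and 4 of 6 fatty acid genes. The sterol regulatory element core TCACNCCAC was in 1.39% of all genes and in 1 member, SREBF2. The LXR direct repeat (AGGTCA, any 4 bases, AGGTCA) was in 0.0256% of all genes and in 0 of the 30 members. No motif contains another, and a match or its absence says only whether these letters are in the window.

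Printed below, 5′ to 3′ along the gene's strand with matches in capitals (ATTGG is CCAAT on the other strand), are 5 windows. They are SREBF2 (chr22:41832855-41833154, plus strand), the 1 member with the SREBP motif; HMGCS1 (chr5:43313363-43313662, minus strand) and IDI1 (chr10:1049070-1049369, minus strand), which are among the members that fell most with BafA1; MYLIP (chr6:16128836-16129135, plus strand), which fell with them; and SCD (chr10:100346983-100347282, plus strand), which did not.
SREBF2: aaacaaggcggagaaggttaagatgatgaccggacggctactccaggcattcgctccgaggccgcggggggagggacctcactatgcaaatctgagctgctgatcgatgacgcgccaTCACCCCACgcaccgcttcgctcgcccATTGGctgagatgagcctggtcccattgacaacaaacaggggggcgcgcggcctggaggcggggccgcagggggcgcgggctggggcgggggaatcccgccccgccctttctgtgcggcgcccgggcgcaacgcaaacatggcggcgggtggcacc
HMGCS1: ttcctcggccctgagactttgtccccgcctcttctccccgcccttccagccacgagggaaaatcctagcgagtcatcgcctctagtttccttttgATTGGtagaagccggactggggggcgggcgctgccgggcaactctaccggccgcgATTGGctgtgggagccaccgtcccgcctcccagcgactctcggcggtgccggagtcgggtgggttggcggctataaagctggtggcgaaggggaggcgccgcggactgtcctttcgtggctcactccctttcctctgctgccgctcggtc
IDI1: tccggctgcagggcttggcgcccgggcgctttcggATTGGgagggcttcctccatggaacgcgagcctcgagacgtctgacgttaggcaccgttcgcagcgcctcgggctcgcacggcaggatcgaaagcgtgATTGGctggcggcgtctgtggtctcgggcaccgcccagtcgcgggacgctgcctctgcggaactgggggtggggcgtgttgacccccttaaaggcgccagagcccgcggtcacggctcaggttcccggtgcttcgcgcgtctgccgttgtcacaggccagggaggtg
MYLIP: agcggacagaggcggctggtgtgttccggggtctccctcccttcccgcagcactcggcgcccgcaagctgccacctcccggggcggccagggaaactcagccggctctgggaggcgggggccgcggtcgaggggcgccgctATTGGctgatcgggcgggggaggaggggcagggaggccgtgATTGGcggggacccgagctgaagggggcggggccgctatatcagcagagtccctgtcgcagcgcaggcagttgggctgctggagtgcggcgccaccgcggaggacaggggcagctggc
SCD: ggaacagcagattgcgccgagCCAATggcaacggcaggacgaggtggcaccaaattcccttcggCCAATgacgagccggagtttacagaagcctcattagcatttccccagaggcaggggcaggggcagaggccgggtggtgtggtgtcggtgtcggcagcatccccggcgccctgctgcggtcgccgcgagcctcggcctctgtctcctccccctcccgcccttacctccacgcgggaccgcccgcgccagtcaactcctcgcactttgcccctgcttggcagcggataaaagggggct
HMGCS1, IDI1, MYLIP and SCD each held 2 NF-Y boxes in the window shown. HMGCS1 and IDI1 also have a window with none of the motifs, and IDI1 has another (chr10:1048837-1049136) with more boxes. The count thus depends on the window shown, and whether the boxes go with the change under BafA1 was not tested. In SREBF2 the SREBP motif began 133 bases before the start and the NF-Y box 106 bases before it.

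Levels below are TMM-scaled CPM (counts relative to library depth), listed for replicates 1, 2 and 3 of a group, and changes are edgeR log2 fold changes ± standard error (SE). A gene was called at an edgeR adjusted p under 0.05. Library totals were 43124679 to 69703791 counts. The mitochondrial share of counts was 3.79–4.64% for hESC, 2.97–3.17% for control and 2.00–2.21% for BafA1 NPC, and that of ribosomal protein genes 6.71–7.52%, 6.51–8.18% and 8.01–11.1%. Pluripotency and floor plate markers went with the labels. The 6 pluripotency genes summed to 3911–4226 CPM in hESC. They summed to 0.281–0.693 CPM in control NPC (3 of the 6 at 0 in every library) and 0.585–0.947 CPM in BafA1 NPC. Midbrain floor plate genes summed to 303.5–346.2, 978.5–1218 and 980.8–1278 CPM in hESC, control and BafA1 NPC. In hESC most of that sum came from NES (mean 259 CPM) and FOXA2 (62.2 CPM). Other lists summed in hESC to 48.0–54.2 (neurons), 13.2–15.4 (mesenchyme), 29.6–32.1 (oligodendrocytes and astrocytes), 104.5–120.0 (neural crest) and 1.77–2.19 CPM (hepatic endoderm). Neuron, mesenchyme and hepatic endoderm sums were thus higher in control NPC than in hESC. With BafA1, 2 of the 8 floor plate genes rose (FOXA2 by 0.68 and MSX1 by 0.84, log2) and 1 fell (SOX1, -0.67), and of the pluripotency genes ESRG rose, from a mean of 0.184 to 0.635 CPM. Between control and BafA1 NPC the summed neuron list went from 84.6–113.6 to 120.4–134.2 CPM (2 of 5 genes rose), the mesenchyme list from 166.2–207.5 to 134.1–182.0 (1 of 5 rose, 2 fell), the oligodendrocyte and astrocyte list from 5.02–6.35 to 9.52–11.3 (2 of 5 tested rose), the neural crest list from 50.2–85.7 to 56.0–71.9 (1 of 3 tested rose; SOX10 and FOXD3 at 0 in control NPC) and the hepatic endoderm list from 7.64–19.0 to 17.2–22.9 (0 of 4 tested called by edgeR, 1 at an unadjusted p under 0.05). Some of these rises were near the floor. SOX10, the neural crest gene that rose, was at 0, 0.171 and 0.124 CPM in BafA1 NPC, so its groups overlapped. TH, a neuron gene that rose, was at 0, 0.0676 and 0 CPM in control NPC and 0.582, 0.536 and 0.776 CPM in BafA1 NPC. The part of these marker differences in the results that follow was not tested. In bulk RNA, fewer cells of a type and less RNA per cell cannot be told apart.

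The main comparison asked how these genes differed with BafA1 in progenitors of the same day. Of the 35 members 22 fell, among them 13 of 18 sterol synthesis and 6 of 7 fatty acid genes, 3 rose (SCAP, NPC1 and ABCA1) and 10 were not called. Of all genes tested, 20.7% fell and 20.8% rose. The members were chosen with earlier results of these data known. Their counts beside the shares of all genes, here and below, are therefore description and not a test. The median change was -0.45 over the members and 0 over all genes. With library size as the only scaling the median of all genes moved by -0.12 (log2), 3105 genes rose and 5682 fell (4309 and 4277 with TMM), and 2 members rose and 26 fell. With limma on log2(FPKM + 1), which tested 31373 genes against 20685 in edgeR, 2520 genes rose and 5268 fell. In that fit 0 members rose (2 at an unadjusted p under 0.05) and 23 fell. At least 2-fold lower were 4 members, HMGCS1, IDI1, ACAT2 and MYLIP, against 4.54% of all genes. In 21 members every BafA1 library lay below every control library, and in 3 above (25.1% and 24.1% of all genes).

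Among the 18 sterol synthesis enzymes, 13 fell, 0 rose and 5 were not called (PMVK, MVD, TM7SF2, MSMO1 and EBP). All 18 estimates were below 0, from -1.82 to -0.08, with a median of -0.55. Summed over the list, sterol synthesis messages were at 1571, 1704 and 1984 CPM in control NPC and at 904.3, 1043 and 1093 CPM in BafA1 NPC, a ratio of group means of 0.578.

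HMGCS1, IDI1 and ACAT2 had the largest falls of the list. HMGCS1 (chromosome 5, 43287470 to 43313412), the synthase that makes HMG-CoA, was at 264, 328 and 426 CPM in control NPC and at 91.2, 99.1 and 98.0 CPM in BafA1 NPC, a change of -1.82 ± 0.15 (adjusted p = 1.16e-05). Its BafA1 libraries lay within a narrow band far below the lowest control library. ACAT2 (chromosome 6, 159762045 to 159779112), the thiolase that supplies acetoacetyl-CoA, was at 93.9, 103 and 119 CPM in control NPC and 33.5, 41.5 and 35.4 CPM in BafA1 NPC, changing by -1.52 ± 0.11 (adjusted p = 9.08e-06). IDI1 (chromosome 10, 1039152 to 1056704), which isomerises the activated isoprene unit, was at 86.9, 99.5 and 123 CPM without and 33.6, 33.2 and 40.7 CPM with BafA1, changing by -1.53 ± 0.13 (adjusted p = 1.48e-05). The BafA1 levels of HMGCS1, ACAT2 and IDI1 were 0.283, 0.350 and 0.347 of the control levels, and no groups overlapped. ACAT2 overlaps TCP1 and SOD2 on the genome and IDI1 overlaps WDR37 and has 3 pseudogene copies in the table, and whether the counting used strand is not known here, so both levels are uncertain.

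The other mevalonate and isoprenoid enzymes had smaller changes. Mevalonate kinase (MVK) was at 16.6, 16.1 and 16.5 CPM in control NPC and 11.0, 14.9 and 11.8 CPM in BafA1 NPC, changing by -0.39 ± 0.12 (adjusted p = 0.0192). That call was lost without BafA1 replicate 1 (adjusted p = 0.0515) or replicate 3 (adjusted p = 0.0665). The next kinase, PMVK, was at 28.6, 23.8 and 25.7 CPM in control NPC and 23.8, 28.2 and 22.0 CPM in BafA1 NPC (-0.08 ± 0.12, adjusted p = 0.622), and the decarboxylase MVD at 32.5, 35.8 and 34.7 CPM in control NPC and 25.1, 34.3 and 33.9 CPM in BafA1 NPC (-0.14 ± 0.12, adjusted p = 0.348). For PMVK and MVD the groups overlapped. With GC and length offsets both were called lower, PMVK at -0.32 (adjusted p = 0.0216) and MVD at -0.41 (adjusted p = 0.00638). FDPS, which makes farnesyl diphosphate and has 10 pseudogene copies that could share its reads, changed by -0.56 ± 0.11 (adjusted p = 0.002), and FDFT1, which joins farnesyl units into squalene, by -0.66 ± 0.15 (adjusted p = 0.00361).

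In the sterol-forming steps, SQLE, the squalene epoxidase, was at 115, 116 and 140.0 CPM in control NPC and 57.2, 64.8 and 75.6 CPM in BafA1 NPC and fell the most (-0.91 ± 0.11, adjusted p = 0.00011). LSS, which closes the ring system to lanosterol, was at 107, 103 and 106 CPM in control NPC and 69.6, 68.6 and 65.9 CPM in BafA1 NPC, changing by -0.63 ± 0.08 (adjusted p = 0.000102). Neither gene had overlapping groups, and the 3 libraries of each group differed little for LSS. Of the enzymes that trim lanosterol, NSDHL, a sterol dehydrogenase, was at 34.7, 38.1 and 38.4 CPM in control NPC and 21.9, 27.5 and 23.5 CPM with BafA1 (-0.61 ± 0.09, adjusted p = 0.000412). HSD17B7, the sterol keto-reductase, was at 15.9, 16.4 and 19.8 CPM in control NPC and 11.5, 12.7 and 11.8 CPM in BafA1 NPC (-0.53 ± 0.10, adjusted p = 0.0017). CYP51A1, the lanosterol demethylase, fell by less (-0.38 ± 0.10, adjusted p = 0.0095). HSD17B7 has 2 and CYP51A1 3 pseudogene copies in the table.

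DHCR7, which makes cholesterol in the last step of one branch, was at 46.7, 44.4 and 49.8 CPM in control NPC and 28.5, 27.6 and 31.8 CPM in BafA1 NPC, with no overlap (-0.68 ± 0.09, adjusted p = 0.000127). The desaturase before it, SC5D, was at 109, 116 and 122 CPM in control NPC and 85.6, 80.6 and 109 CPM in BafA1 NPC, and the groups overlapped (-0.33 ± 0.11, adjusted p = 0.0327). The SC5D call was lost without control replicate 2 or 3 or BafA1 replicate 1 or 2 (highest adjusted p = 0.117), in a fit of these 2 groups alone (adjusted p = 0.0604) and with GC and length offsets (adjusted p = 0.0660). MSMO1, the sterol methyl oxidase, was at 60.6, 77.1 and 101 CPM in control NPC and 45.1, 47.2 and 82.3 CPM in BafA1 NPC, where replicate 3 stood above the other two. It was not called (-0.45 ± 0.22, adjusted p = 0.126), and without BafA1 replicate 3 its change was -0.79 (adjusted p = 0.00753). The reductase TM7SF2 (-0.19 ± 0.09, adjusted p = 0.121) and the isomerase EBP (-0.16 ± 0.10, adjusted p = 0.211) were not called. With library size as the only scaling TM7SF2, EBP, MVD and MSMO1 were each called lower (adjusted p = 0.00857, 0.0160, 0.0472 and 0.0420), and TM7SF2 was also called without control replicate 3 (adjusted p = 0.0407). GC and length offsets called TM7SF2 (-0.48, adjusted p = 0.000357) and EBP (-0.26, adjusted p = 0.0126) lower as well. Limma on FPKM called these genes lower in each of its fits (TM7SF2 adjusted p = 0.0151 to 0.0361, EBP adjusted p = 0.0172 to 0.0356), and with filtered values MVD (adjusted p = 0.0299) and MSMO1 (adjusted p = 0.0411) too.

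**Figure D1:**
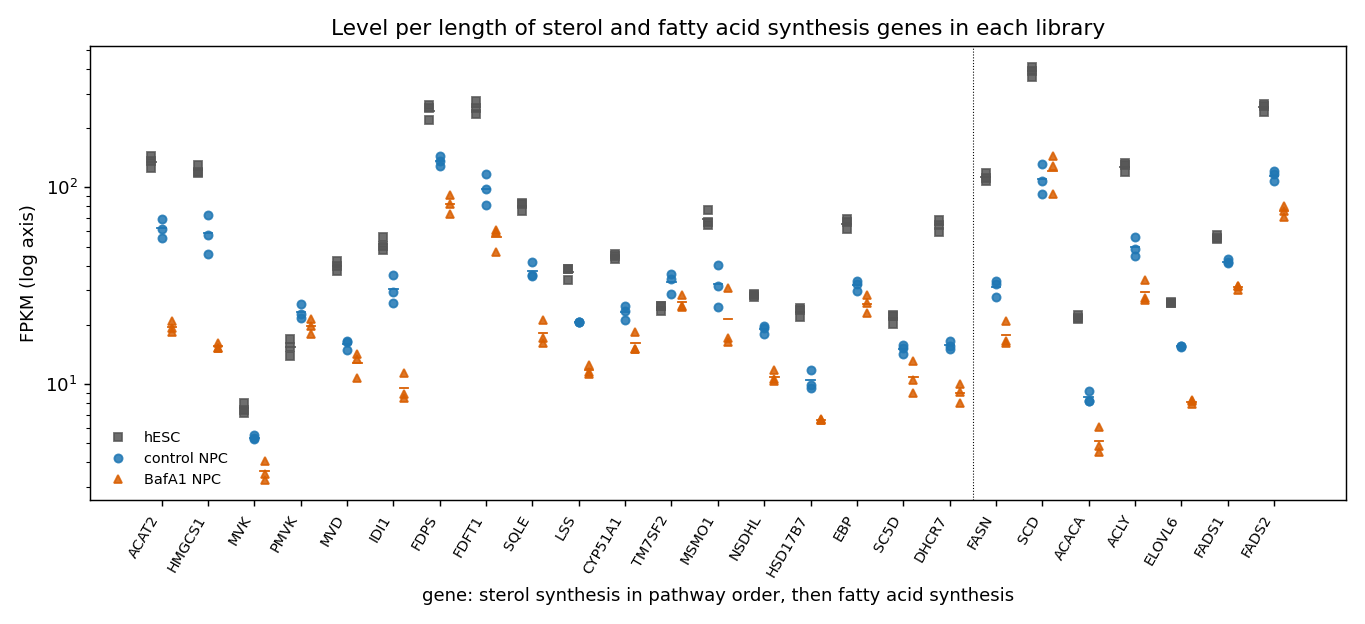
FPKM (reads per length and depth, log axis) of the 18 sterol synthesis genes in pathway order and the 7 fatty acid genes, 1 point per library and a short bar at the mean of 3, for hESC (grey squares), control NPC (blue circles) and BafA1 NPC (orange triangles). For most genes the groups step down from hESC to control to BafA1 NPC, while PMVK and TM7SF2 were highest in control NPC and SCD did not step down with BafA1.

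The 4 SREBP control genes moved in no common direction: 1 fell (SREBF1), 1 rose (SCAP) and 2 were not called (INSIG1 and SREBF2), with a median change of -0.13. SREBF2, which encodes the SREBP of sterol synthesis, was at 179, 179.9 and 209 CPM in control NPC and 195, 213 and 227 CPM in BafA1 NPC, with overlapping groups (0.17 ± 0.09, adjusted p = 0.182). SREBF1, which encodes the SREBP of fatty acid synthesis, was at 27.9, 25.0 and 22.0 CPM in control NPC and 21.1, 15.4 and 19.2 CPM with BafA1, with no overlap (-0.42 ± 0.12, adjusted p = 0.0154). That call was lost without control replicate 1 (adjusted p = 0.0647), without BafA1 replicate 2 (adjusted p = 0.0536) and with limma on the FPKM values (adjusted p = 0.0661 to 0.168).

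SCAP, the escort, was at 78.0, 67.6 and 67.8 CPM in control NPC and 94.9, 85.6 and 84.1 CPM in BafA1 NPC, all BafA1 libraries being higher (0.31 ± 0.09, adjusted p = 0.0127). This rise was not called without control replicate 2 (adjusted p = 0.0682), with library size as the only scaling (0.19, adjusted p = 0.142), with limma on FPKM (0.15 to 0.16, adjusted p = 0.206 to 0.279) or with GC and length offsets (0.16, adjusted p = 0.0595). INSIG1, a retention protein and itself a target of SREBP, was at 20.3, 25.1 and 31.3 CPM in control NPC and 12.0, 15.0 and 27.7 CPM in BafA1 NPC. Replicate 3 was far above the other BafA1 libraries and inside the control range, and the gene was not called (-0.48 ± 0.25, adjusted p = 0.145). Without that library the change was -0.93 (adjusted p = 0.00266), and limma on filtered FPKM called it lower (-0.59, adjusted p = 0.0414).

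Genes of sterol uptake, transport and efflux moved in both directions, with 2 higher, 2 lower and 2 not called of 6 and a median change of 0.16. MYLIP (chromosome 6, 16129086 to 16163887), the ligase that marks lipoprotein receptors for degradation, was at 16.3, 14.7 and 13.5 CPM in control NPC and 8.03, 4.92 and 6.33 CPM in BafA1 NPC (-1.20 ± 0.15, adjusted p = 9.26e-05). ABCG1, which exports sterol to lipoprotein particles, was at 5.97, 6.10 and 4.22 CPM in control NPC and 3.48, 2.95 and 2.98 CPM in BafA1 NPC (-0.79 ± 0.16, adjusted p = 0.00192). Both fell with no overlap between groups. ABCA1 (chromosome 9, 104781006 to 104928155), the exporter to lipid-poor apolipoproteins, went the other way, from 17.0, 14.6 and 11.2 CPM to 31.1, 19.6 and 28.7 CPM (0.90 ± 0.18, adjusted p = 0.00249). The ABCA1 call was lost with limma on log2(FPKM + 1) over all genes (0.47, adjusted p = 0.0756) and with a pseudocount of 0.1 (0.72, adjusted p = 0.0596).

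Of the lysosomal pair, NPC1, the membrane transporter, was at 41.9, 40.2 and 42.2 CPM in control NPC and 54.5, 51.1 and 55.4 CPM in BafA1 NPC, each BafA1 library being higher than every control library (0.37 ± 0.07, adjusted p = 0.00171). With limma on FPKM it missed the threshold (0.20 to 0.22, adjusted p = 0.0528 to 0.0612). NPC1 overlaps RMC1 on the genome. NPC2, its soluble partner, was at 176, 189.8 and 217 CPM in control NPC and 180.4, 252 and 251 CPM in BafA1 NPC with overlapping groups (0.23 ± 0.13, adjusted p = 0.17). Without BafA1 replicate 1, the lowest of its group, the NPC2 change was 0.38 (adjusted p = 0.00738), and with GC and length offsets it was called at 0.23 (adjusted p = 0.0483). STARD4, a cytosolic sterol carrier, varied most of all members between control replicates, at 52.6, 71.0 and 95.3 CPM in control NPC and 66.9, 57.2 and 107 CPM in BafA1 NPC. It was not called (0.08 ± 0.23, adjusted p = 0.81), and its sign turned under 6 of the 21 alternatives.

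**Figure D2:**
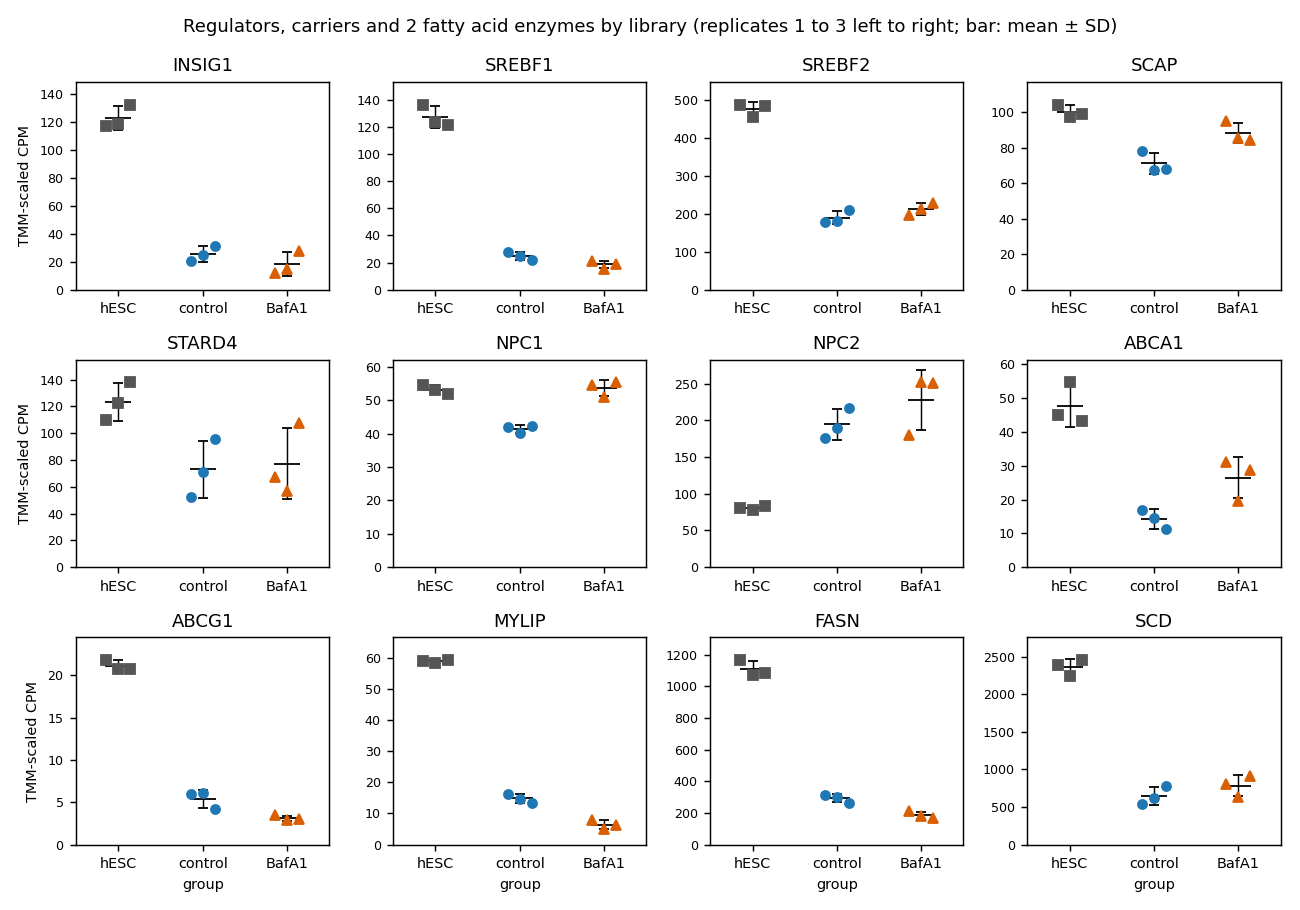
TMM-scaled CPM of 12 members in each library (replicates 1 to 3 from left to right, linear axes from 0, bar and whiskers at mean ± SD of 3). ABCA1, NPC1 and SCAP are higher in BafA1 than in control NPC without overlap, MYLIP, ABCG1, FASN and SREBF1 are lower, and the single high BafA1 points of INSIG1 (27.7 CPM) and STARD4 (107 CPM) are replicate 3.

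Of the 7 fatty acid genes 6 fell and 1, SCD, was not called. The median change was -0.60. ACLY, which makes cytosolic acetyl-CoA from citrate, was at 269, 231 and 217 CPM in control NPC and 175, 151 and 143 CPM in BafA1 NPC (-0.61 ± 0.11, adjusted p = 0.000934). ACACA, the carboxylase that commits acetyl-CoA to fatty acids, was at 102, 88.5 and 92.6 CPM in control NPC and 71.8, 57.6 and 57.5 CPM in BafA1 NPC (-0.60 ± 0.10, adjusted p = 0.000676). FASN, the synthase, was at 315, 299 and 265 CPM in control NPC and 211, 178 and 170.5 CPM in BafA1 NPC (-0.65 ± 0.11, adjusted p = 0.000586). These 3 consecutive enzymes fell by nearly the same amount, to 0.636 to 0.661 of control.

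ELOVL6, which elongates palmitate, was at 113, 112 and 115 CPM in control NPC and 64.5, 67.8 and 65.1 CPM in BafA1 NPC, the largest fall of the list with little spread (-0.78 ± 0.07, adjusted p = 1.73e-05). FADS2, the first desaturase of polyunsaturated fatty acids, was at 414, 395 and 374 CPM in control NPC and 279, 283 and 301 CPM in BafA1 NPC (-0.45 ± 0.08, adjusted p = 0.00133). Its neighbour FADS1, a desaturase that acts later in that route, changed by -0.28 ± 0.07 (adjusted p = 0.0102). FADS1 and FADS2 overlap on chromosome 11, so reads in the shared stretch are uncertain. SCD (chromosome 10, 100347233 to 100364826), which makes monounsaturated fatty acids, was at 538, 617 and 776 CPM in control NPC and 800.1, 633 and 916 CPM in BafA1 NPC. Its BafA1 libraries overlapped the control range and it was not called (0.28 ± 0.15, adjusted p = 0.159), but it was called higher without control replicate 3 (0.44, adjusted p = 0.0386) or BafA1 replicate 2 (0.42, adjusted p = 0.0452). SCD has 1 pseudogene copy in the table. The list's summed counts, SCD included, were at 1960, 1939 and 2043 CPM in control NPC and 1765, 1540 and 1820 CPM in BafA1 NPC.

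**Figure D3:**
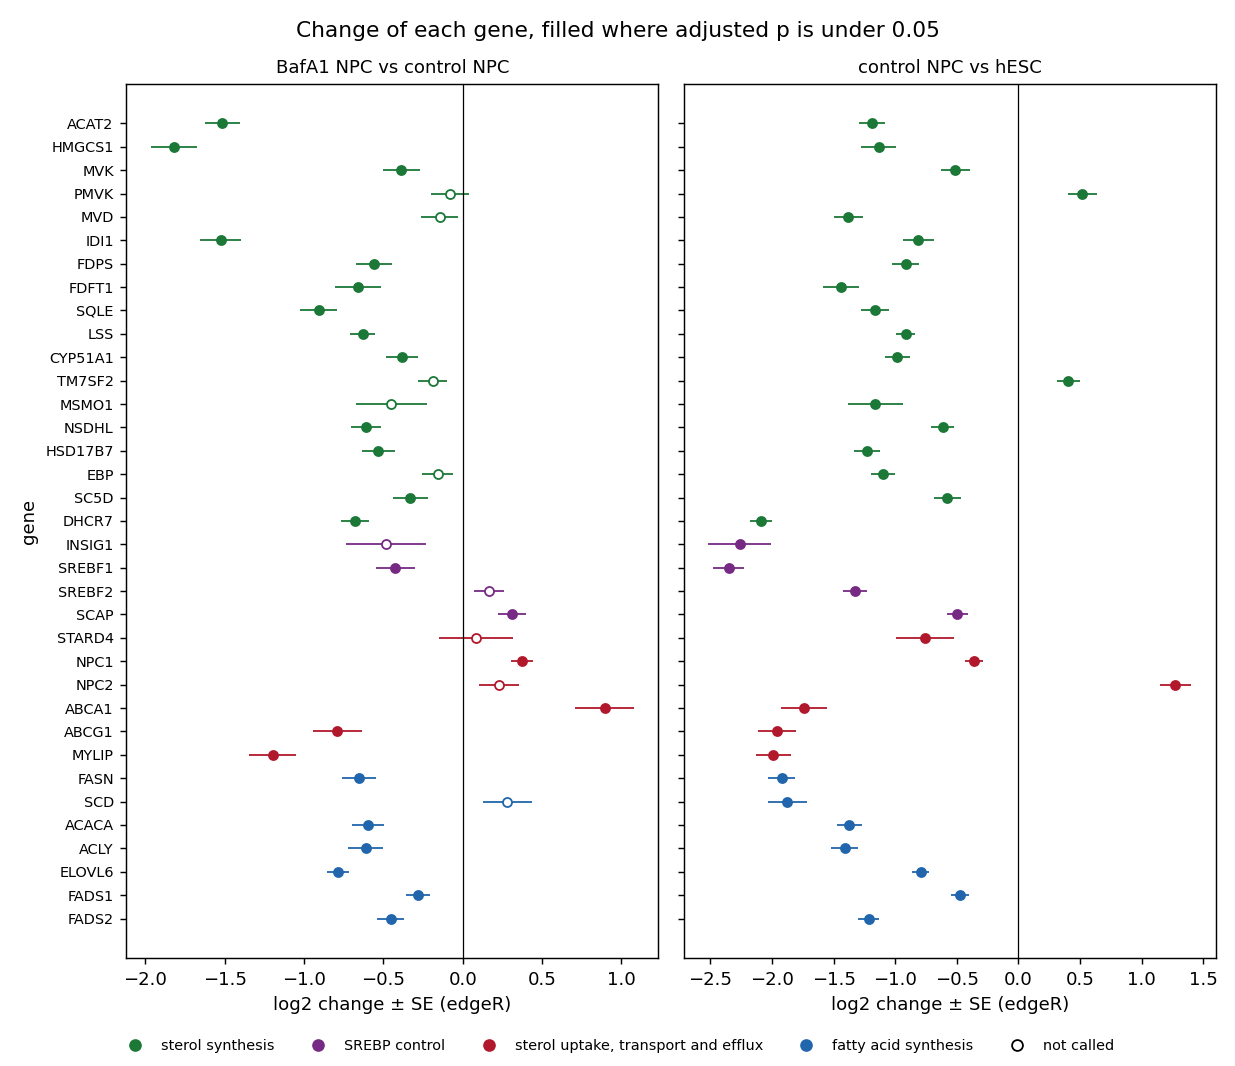
Log2 change ± SE of each of the 35 members for BafA1 NPC against control NPC (left) and control NPC against hESC (right), colored by role and filled where the edgeR adjusted p is under 0.05. On the left all sterol synthesis points lie below 0 and ABCA1 (0.90) lies furthest above it. On the right only PMVK, TM7SF2 and NPC2 lie above 0.

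Control NPC against hESC gave the scale of the change over differentiation. Relative to hESC, 32 of the 35 members fell, 3 rose (PMVK, TM7SF2 and NPC2) and 0 were left uncalled by edgeR. Of all genes, 31.6% fell and 33% rose in this comparison. The median change was -1.16 over the members and 0.03 over all genes. At least 2-fold lower were 20 members, against 16.7% of all genes. No member had overlapping groups: 32 lay wholly lower and 3 wholly higher, against 35.8% and 37% of all genes. By role 16 of 18 sterol synthesis genes, 4 of 4 SREBP control genes, 5 of 6 uptake, transport and efflux genes and 7 of 7 fatty acid genes fell.

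The largest falls were those of SREBF1, INSIG1 and DHCR7. SREBF1 was at 137, 124 and 121 CPM in hESC (-2.35 ± 0.12 in control NPC relative to hESC, adjusted p = 1.2e-08), and INSIG1 was at 117, 119 and 133 CPM (-2.26 ± 0.26, adjusted p = 8.72e-06). SREBF2 was at 487, 453 and 484 CPM in hESC and fell by less (-1.33 ± 0.10, adjusted p = 1.78e-07). SCAP fell least of the 4, from 104, 97.4 and 99.0 CPM (-0.50 ± 0.09, adjusted p = 0.000293), and with GC and length offsets its change was -0.04 (adjusted p = 0.561). DHCR7 was at 202, 186 and 209.7 CPM in hESC, more than in any progenitor library by a wide margin (-2.08 ± 0.09, adjusted p = 1.95e-09).

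HMGCS1 was at 731, 726 and 781 CPM in hESC (-1.14 ± 0.14, adjusted p = 2.25e-05), ACAT2 at 242, 225 and 251 CPM (-1.19 ± 0.11, adjusted p = 1.32e-06) and IDI1 at 174, 177 and 193 CPM (-0.81 ± 0.13, adjusted p = 0.00012). The BafA1 and the differentiation change of a gene share the control libraries, and their difference was not tested. MVK fell from 24.6, 22.2 and 23.4 CPM (-0.51 ± 0.12, adjusted p = 0.00194), a call lost with GC and length offsets (-0.13, adjusted p = 0.330). The kinase PMVK was at 20.1, 16.5 and 17.8 CPM in hESC and rose (0.52 ± 0.12, adjusted p = 0.00211), as did TM7SF2 from 45.9, 47.6 and 45.9 CPM (0.40 ± 0.09, adjusted p = 0.00204).

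The ligase MYLIP and both exporters were lower in progenitors. MYLIP was at 58.8, 58.3 and 59.4 CPM in hESC (-1.99 ± 0.14, adjusted p = 1.63e-07), ABCG1 at 21.9, 20.8 and 20.7 CPM (-1.96 ± 0.15, adjusted p = 3.26e-07) and ABCA1 at 44.9, 54.7 and 43.1 CPM (-1.74 ± 0.19, adjusted p = 5.43e-06). The hESC libraries of these genes lay above both progenitor groups. NPC2 stood apart with 80.6, 77.6 and 83.1 CPM in hESC and a rise of 1.27 ± 0.13 (adjusted p = 3.36e-06), while NPC1 fell from 54.6, 53.0 and 52.0 CPM (-0.36 ± 0.07, adjusted p = 0.00088). STARD4 fell from 109, 122 and 138 CPM (-0.76 ± 0.23, adjusted p = 0.0136), and leaving out hESC replicate 3 (adjusted p = 0.0503) or control replicate 1 (adjusted p = 0.0547) ended this call.

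The 7 fatty acid genes fell by different amounts. SCD was at 2383, 2246 and 2461 CPM (-1.88 ± 0.16, adjusted p = 6.44e-07) and FASN at 1169, 1072 and 1082 CPM (-1.92 ± 0.11, adjusted p = 2.28e-08). FADS2 was at 929, 876 and 937 CPM (-1.21 ± 0.09, adjusted p = 1.44e-07), ACLY at 663, 600.2 and 641 CPM (-1.41 ± 0.11, adjusted p = 3.2e-07) and ACACA at 249.5, 242 and 239.6 CPM (-1.37 ± 0.10, adjusted p = 2.03e-07). ELOVL6, at 197, 197 and 196 CPM in hESC (-0.79 ± 0.07, adjusted p = 8.87e-07), and FADS1, at 291, 281 and 273 CPM (-0.47 ± 0.07, adjusted p = 0.00014), had the smallest falls. No groups overlapped. The list's sum was 5514–5881 CPM before and 1939–2043 CPM after differentiation, a ratio of 0.345, and that of sterol synthesis 3533–3849 and 1571–1984 CPM, a ratio of 0.475.

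Set directly against hESC, BafA1 NPC had 30 members lower, 2 higher (PMVK and NPC2) and 3 not called (TM7SF2, SCAP and NPC1), with 34.8% of all genes lower and 35.5% higher. The median change was -1.58. The lowest members relative to hESC were MYLIP at 8.03, 4.92 and 6.33 CPM (-3.19 ± 0.15, adjusted p = 4.57e-09) and HMGCS1 at 91.2, 99.1 and 98.0 CPM (-2.96 ± 0.15, adjusted p = 8.71e-09). ABCA1 was below hESC (-0.84 ± 0.18, adjusted p = 0.00123), although it was higher in BafA1 than in control NPC. For NPC1 the estimate was 0.01 ± 0.07 (adjusted p = 0.872) with a sign that turned under other scalings, and for SCAP it was -0.18 ± 0.09 (adjusted p = 0.0721). SCAP was called lower than in hESC with DESeq2 (adjusted p = 0.0250), DESeq2 size factors (adjusted p = 0.0382), limma on FPKM (adjusted p = 0.0177 to 0.0288) and without BafA1 replicate 1 (adjusted p = 0.0225), while with GC and length offsets its estimate was 0.12 (adjusted p = 0.119). These 3 comparisons share groups, so they are not independent of each other.

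Levels can be compared between genes only per length, as FPKM. In hESC the highest members were SCD at 389 ± 22.7 FPKM (SD, n = 3), FADS2 at 256 ± 11.9, FDFT1 at 255 ± 18.4 and FDPS at 245 ± 21.4, of which the last 3 did not differ beyond their spread. In control NPC the lysosomal sterol carrier NPC2 came first with 206 ± 18.4 FPKM, ahead of FDPS at 136 ± 7.99, FADS2 at 115 ± 6.92, SCD at 110 ± 19.4 and FDFT1 at 98.6 ± 17.9, and the last 3 overlapped. BafA1 NPC again had NPC2 first, with 215 ± 32.6 FPKM, then SCD with 122 ± 26.4 and FDPS with 82.4 ± 8.66. The exporters ABCG1 and ABCA1 were the lowest members in hESC and control NPC, and MYLIP, at 1.71 ± 0.486 FPKM, lay between them in BafA1 NPC. ABCG1 was at 4.37 ± 0.231, 1.23 ± 0.209 and 0.550 ± 0.166 FPKM in hESC, control and BafA1 NPC, and ABCA1 at 3.96 ± 0.499, 1.22 ± 0.288 and 2.09 ± 0.571 FPKM.

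Replicates were tighter in hESC than in progenitors. The members' CPM had a median coefficient of variation of 4.62% for hESC, 9.43% for control NPC and 12.0% for BafA1 NPC, and the widest was INSIG1 in BafA1 NPC at 45.8%. Within the control group, replicate 3 was the highest library for 12 of the 18 sterol synthesis genes and replicate 1 the lowest for 11. In the BafA1 group replicate 1 was the lowest for 13 of the 18. MSMO1 and STARD4, chosen here after their values were seen, were likewise lowest in replicate 1 and highest in replicate 3 of the control group.

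**Figure D4:**
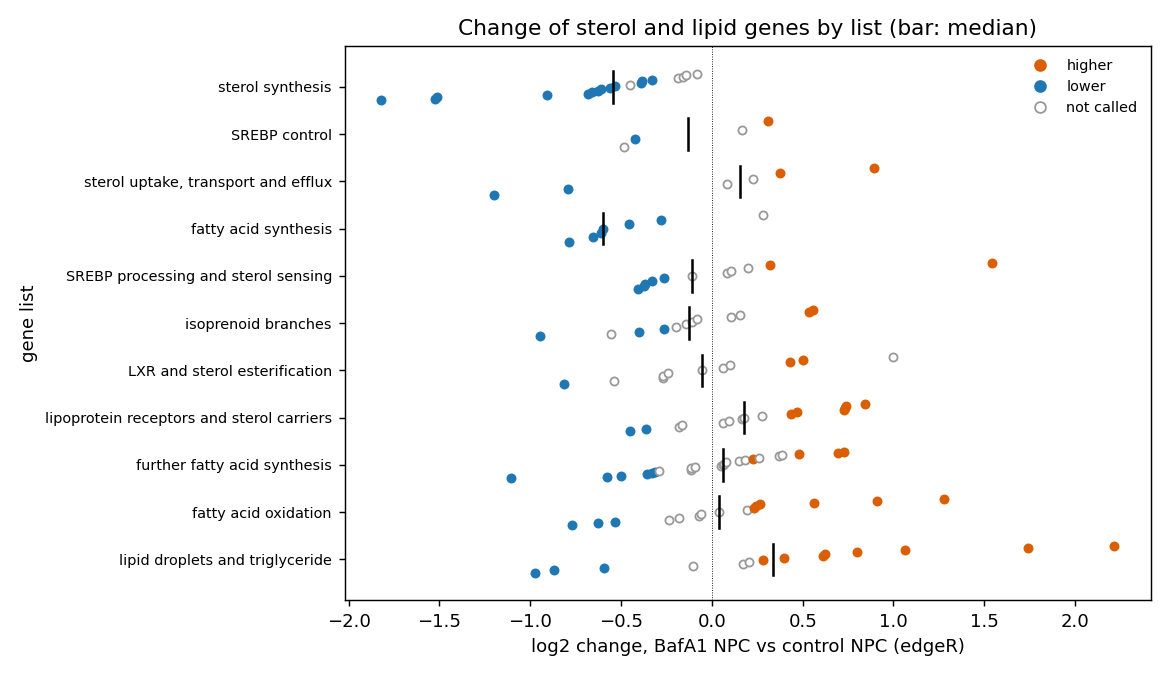
Log2 change in BafA1 against control NPC (edgeR) of every gene in the 4 member lists and 7 further lipid lists, with higher calls in orange, lower in blue, uncalled genes open and a bar at each list's median. The medians of sterol synthesis (-0.55) and fatty acid synthesis (-0.60) lie furthest below 0, and that of lipid droplets and triglyceride (0.34) furthest above.

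The other genes of these pathways were read from 7 companion lists of 101 genes that hold no member. With BafA1, 30 of the 101 rose, 23 fell and 48 were not called, against 20.8% of all genes higher and 20.7% lower. With limma on FPKM 15 to 18 of them rose. The named companions are, for each list, up to 3 called genes with the smallest adjusted p.

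In the list of SREBP processing and sterol sensing 2 of 11 rose and 5 fell. INSIG2, the paralog of INSIG1, was at 47.7, 64.8 and 76.0 CPM in control NPC and 168, 142 and 238 CPM in BafA1 NPC, with all 3 BafA1 libraries far higher (1.54 ± 0.21, adjusted p = 0.000166). INSIG1 was not called, and the difference between the 2 paralogs was not tested. PGRMC1, a haem-binding partner of SCAP and INSIG, fell (-0.41 ± 0.08, adjusted p = 0.00263), as did RNF145, a ubiquitin ligase of the endoplasmic reticulum (-0.38 ± 0.09, adjusted p = 0.00621).

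Among genes of the isoprenoid branches, which draw on farnesyl diphosphate, 2 of 12 rose and 3 fell. ICMT, which methylates prenylated proteins, was at 123, 115 and 93.2 CPM in control NPC and 62.6, 57.2 and 52.3 CPM in BafA1 NPC (-0.95 ± 0.11, adjusted p = 6.5e-05). The prenyltransferase subunit RABGGTA (0.56 ± 0.12, adjusted p = 0.00293) and the ubiquinone side-chain gene PDSS2 (0.53 ± 0.11, adjusted p = 0.00315, up to 0.0564 under the alternatives) rose. Of 11 LXR and sterol esterification genes 2 rose and 1 fell: SOAT1, which esterifies cholesterol for storage, was at 43.9, 42.8 and 35.01 CPM in control NPC and 23.4, 22.0 and 23.7 CPM in BafA1 NPC (-0.82 ± 0.14, adjusted p = 0.000936), while the phospholipid transfer protein PLTP (0.43 ± 0.09, adjusted p = 0.00263) and the sterol hydroxylase CYP27A1 (0.50 ± 0.13, adjusted p = 0.0109) rose.

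Of 15 lipoprotein receptor and sterol carrier genes 6 rose and 2 fell. VLDLR, a lipoprotein receptor that MYLIP targets, was at 28.2, 29.9 and 38.2 CPM in control NPC and 66.1, 50.6 and 56.1 CPM in BafA1 NPC (0.84 ± 0.14, adjusted p = 0.00081). GRAMD1A, which carries sterol from the plasma membrane to the endoplasmic reticulum, was at 48.7, 48.6 and 48.7 CPM in control NPC and 75.4, 78.7 and 88.3 CPM in BafA1 NPC (0.73 ± 0.08, adjusted p = 5.96e-05). The receptor LRP8, also a target of MYLIP, fell (-0.45 ± 0.09, adjusted p = 0.00151). The 2 receptors thus moved in opposite directions.

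Further fatty acid synthesis genes divided into 4 higher and 6 lower of 23. ELOVL2, an elongase of polyunsaturated fatty acids, was at 16.3, 17.0 and 18.8 CPM in control NPC and 8.74, 8.41 and 7.09 CPM in BafA1 NPC (-1.11 ± 0.13, adjusted p = 7.7e-05). HACD3, a dehydratase of the elongation cycle, fell (-0.58 ± 0.08, adjusted p = 0.000255) and ME1, which supplies NADPH, rose (0.69 ± 0.10, adjusted p = 0.000255). Fatty acid oxidation, with 6 of 15 higher and 3 lower, held acyl-CoA dehydrogenases that moved apart: ACADS, for short chains, was at 10.0, 13.0 and 12.0 CPM in control NPC and 26.0, 28.7 and 30.4 CPM in BafA1 NPC (1.28 ± 0.13, adjusted p = 2.87e-05), ACADVL, for very long chains, changed by 0.91 ± 0.11 (adjusted p = 8.54e-05) and ACADM, for medium chains, by -0.77 ± 0.09 (adjusted p = 8.13e-05).

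Lipid droplet and triglyceride genes had the most rises, 8 of 14, with 3 falls. HILPDA, a droplet protein that inhibits lipolysis, was at 50.0, 62.4 and 77.3 CPM in control NPC and 251, 230.4 and 399 CPM in BafA1 NPC, the largest change of any gene in these lists (2.21 ± 0.21, adjusted p = 2.3e-05). GPAM, which starts glycerolipid synthesis, was at 40.8, 37.0 and 37.0 CPM in control NPC and 20.4, 19.0 and 19.2 CPM in BafA1 NPC (-0.97 ± 0.09, adjusted p = 2.5e-05). ABHD5, the activator of triglyceride lipase, fell too (-0.87 ± 0.13, adjusted p = 0.000333). In control NPC against hESC, 35 of the 101 companions rose and 40 fell, against 33% and 31.6% of all genes.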

How the data were processed

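Messenger RNA of 9 libraries (3 each of hESC, control NPC and BafA1 NPC) was prepared with a kit that keeps strand, per the labels' protocols. The submitters' processing notes name Trimmomatic and GRCh38. No source used here gives the aligner, the counter, its use of strand or any version. The authors deposited whole-number read counts per gene, without normalization, and FPKM per gene and library, per the file headers. Columns were matched to samples by name, the columns named as control going to untreated NPC, the group left. The table held 46427 genes, of which 15054 had no count, and 0 unused sample columns.

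Counts were tested with edgeR 4.0.16 in R 4.3.3: filterByExpr (20685 genes), TMM, 1 quasi-likelihood model with a term per group over all 9 libraries, two-sided tests, and Benjamini-Hochberg adjustment over all genes tested. The SE is the log2 change divided by the root of the F statistic. Alternatives were DESeq2 1.42.0, DESeq2 size factors or library size alone, no filter, robust estimation, only the groups compared, limma 3.58.1 on log2(FPKM + 1) with all genes or filtered (at least 1 FPKM in 3 libraries) and on log2(FPKM + 0.1), a replicate block, GC and length offsets (a spline with 5 degrees of freedom over 17488 genes) with and without the block, and each library left out, 21 in all. In simulated data for BafA1 against control NPC (19621 genes), 100 genes were changed by 1 (log2) and 100 by 0.5. All genes were given 1 dispersion (0.0199). The test recovered 97% of the former and 17% of the latter, so small changes can be missed. In the data far more genes were called (4309 higher and 4277 lower), which makes the adjusted threshold less strict. These shares therefore need not hold for the reported test. Chi-square per degree of freedom between replicates was 10.6 to 69.1, so no pair differed by count sampling alone. This value cannot tell separate preparations of 1 culture or RNA from separate cultures. Members and lists were chosen with earlier results of these data known. Named in full are the 14 members with the smallest adjusted p for BafA1 against control NPC, the 8 for control NPC against hESC, and always INSIG1, SREBF1, SREBF2, SCAP, ABCA1, ABCG1, MYLIP, NPC1, FASN and SCD, in all 22; other members were described to complete their role. Positions, promoter windows and pseudogene names are from RefSeq (GRCh38.p14) and the table, with positions 1-based.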

Additional observations from a re-analysis of the deposited data

How the results depend on the processing

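In BafA1 against control NPC, 19 of the 25 called members were called under all 21 alternatives, in control NPC against hESC 32 of 35 and in BafA1 NPC against hESC 31 of 32. Members higher in BafA1 than in control NPC numbered 3, but 0 with limma on log2(FPKM + 1) or log2(FPKM + 0.1) over all genes (2 at an unadjusted p under 0.05 in each) and 1 with the filtered FPKM values; the companion genes higher, 30, numbered 15, 16 and 18 in these fits. The cause was not tested. Members lower ranged from 21 to 27 over the other settings and from 20 to 23 with 1 library left out, and members higher from 2 to 4 with 1 left out. The STARD4 change in BafA1 against control NPC (0.08) was -0.0573 with library size alone, -0.0384 with log2(FPKM + 1) over all or filtered genes and -0.0416 with log2(FPKM + 0.1), and -0.23 to 0.32 with 1 library left out. The NPC1 change in BafA1 NPC against hESC (0.01) was -0.0212 with DESeq2 size factors, -0.00916 with library size alone, -0.0260 with DESeq2, -0.000683 with only the 2 groups, -0.0749 with log2(FPKM + 1) over all or filtered genes and -0.0823 with log2(FPKM + 0.1), and -0.0107 to 0.0515 with 1 left out. SCAP in BafA1 NPC against hESC (-0.18) was 0.12 with GC and length offsets, with or without the replicate block.

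Whether replicate numbers pair the samples is not known. Over all genes tested, deviations from the group means correlated at -0.055 to 0.088 in 9 same-numbered pairs and -0.057 to 0.050 in 18 others. The deviations of a group's 3 libraries sum to 0, so these values are not independent and cannot settle the question. With the number as a replicate block, 24 members fell and 3 rose in BafA1 against control NPC (MSMO1 and INSIG1 added, adjusted p = 0.0178 and 0.0295), 32 fell and 3 rose in control NPC against hESC, and 31 fell and 2 rose in BafA1 NPC against hESC (SCAP added, adjusted p = 0.0405); 4111 genes rose and 4130 fell in the first comparison. The fewest counts of any member were those of ABCG1, at 2.95 CPM in 1 BafA1 library.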
